A study of Mus musculus with 6 samples.

Results

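Cisplatin kills cells by joining bases of DNA, and the genes that remove or tolerate such adducts are described here in 2 mouse ovarian cancer lines. The genes were chosen by symbol, with patterns for the Fanconi, BRCA, RAD, XRCC, RECQ, ERCC, PARP, mismatch repair, translesion polymerase and damage signalling families. The rule found 68 of the 7320 genes in the deposited table, and all 68 passed the filter on low counts. ID8 is a line of transformed ovarian epithelial cells from C57Bl6 mice, sampled at passages 23, 24 and 35 for replicates 1, 2 and 3. KMF, also labelled ID8-IP, was isolated from the ascites of mice bearing ID8 tumours, and was sampled at passages 14, 17 and 22. Both lines grew for 5 days as tumorspheres, floating clusters of cells in serum-free PromoCell XF medium, and received no treatment, so the levels below are those before any platinum drug. Each line is 1 cell line, and its replicates are RNA samples of different passages, so that p-values measure the spread between passages of these lines and not between tumours.

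Platinum adducts on 1 strand are cut out by nucleotide excision repair, in which XPC with RAD23B finds the damage. Crosslinks between the strands are recognised by the Fanconi proteins, which load the FANCI and FANCD2 pair on DNA and direct nucleases to unhook the crosslink. Translesion polymerases then copy past the remnant, and homologous recombination, which needs BRCA1, PALB2 and BRCA2 and copies an intact strand, repairs the resulting break. Mismatch repair proteins also bind platinum adducts and signal to the cell cycle checkpoints.

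The table holds only genes that the authors had already called different on these 6 libraries. A gene of these families outside it was not analysed here, and a call below is no independent evidence that a gene differs. Libraries held between 23108407 and 33212313 fragments on genes. Levels are FPKM (fragments scaled to gene length and library size), given as mean ± SD over 3 libraries. Log2 fold changes (KMF over ID8) with their SE and adjusted p-values are from edgeR's quasi-likelihood test with Benjamini-Hochberg adjustment, and a gene is termed called at an adjusted p under 0.05. As a check of the labelled cell type, 7 of 11 epithelial and mesothelial markers were listed, and of the 6 that could be fitted Msln was called higher in KMF and the other 5 lower, 4 of them by at least 2-fold. Msln and Wt1 were present in both lines, at 34.3 ± 4.70 and 108 ± 12.1 FPKM in ID8 and 91.6 ± 11.5 and 77.3 ± 13.2 FPKM in KMF. Of the epithelial genes, Krt8, Krt18 and Krt19 were not listed and were not analysed here. Cdh1 (E-cadherin) was at 8.61 ± 2.94 FPKM in ID8 and 0.726 ± 0.222 in KMF, Epcam at 3.41 ± 1.09 and 0.618 ± 0.261 and Krt7 at 1.57 ± 0.66 and 0.260 ± 0.030, and the mesothelial gene Upk3b was at 25.3 ± 16.4 and 1.70 ± 0.55. The sum of the 7 markers, mostly Msln and Wt1, was 143 to 212 FPKM in ID8 and 147 to 196 in KMF. Of 13 leukocyte markers only Cd74 was listed, with 0.857 to 1.59 FPKM in ID8 and 0.215 to 0.391 in KMF. Of 12 fibroblast and endothelial markers 5 were listed, and their sum was 77.4 to 107 FPKM in ID8 and 13.5 to 25.9 in KMF. Most of that sum was Dcn, at 66.5 ± 17.5 FPKM in ID8 and 14.3 ± 5.96 in KMF. Of 8 genes that respond to stress during handling of cells, 4 were listed, and all 4 were called with a change of at least 2-fold. Jun was at 12.4 ± 1.48 FPKM in ID8 and at 76.9, 34.1 and 32.2 in the KMF libraries. Fos was at 5.31 ± 1.97 and 11.2 ± 4.02, with overlapping libraries and a call in 10 of 17 alternatives. Gadd45a was at 54.4 ± 5.85 and 6.95 ± 1.55 and Hspa1a at 0.755 ± 0.061 and 0.164 ± 0.114. The part of other cells and of stress in the results was not tested.

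Recombination and crosslink repair genes were mostly higher in KMF tumorspheres. Of the 68 genes, 63 were called (92.6%, beside 92.9% of all 6967 fitted genes), and 48 of them were higher in KMF (70.6%, beside 45.4% of all fitted genes). The other 15 were lower, beside 47.5% of all fitted genes, but only 8 without ID8 replicate 1 and 9 without KMF replicate 2 or 3. Calls over all genes also fell in these fits, from 6470 to 5189, 5515 and 5351. The median log2 fold change was 0.69 over the 68 genes and -0.23 over all fitted genes. A change of at least 2-fold was called for 29 of the 68 genes (42.6%), beside 40.5% of all fitted genes. Of these, 27 were higher (39.7% of the 68, beside 18% of all fitted genes) and 2 lower (2.94%, beside 22.5%). The FPKM of the lines did not overlap for 67 genes, as for 96.6% of all fitted genes. In bulk RNA, a smaller number of cells that make a transcript and less RNA per cell cannot be told apart.

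**Figure D1:**
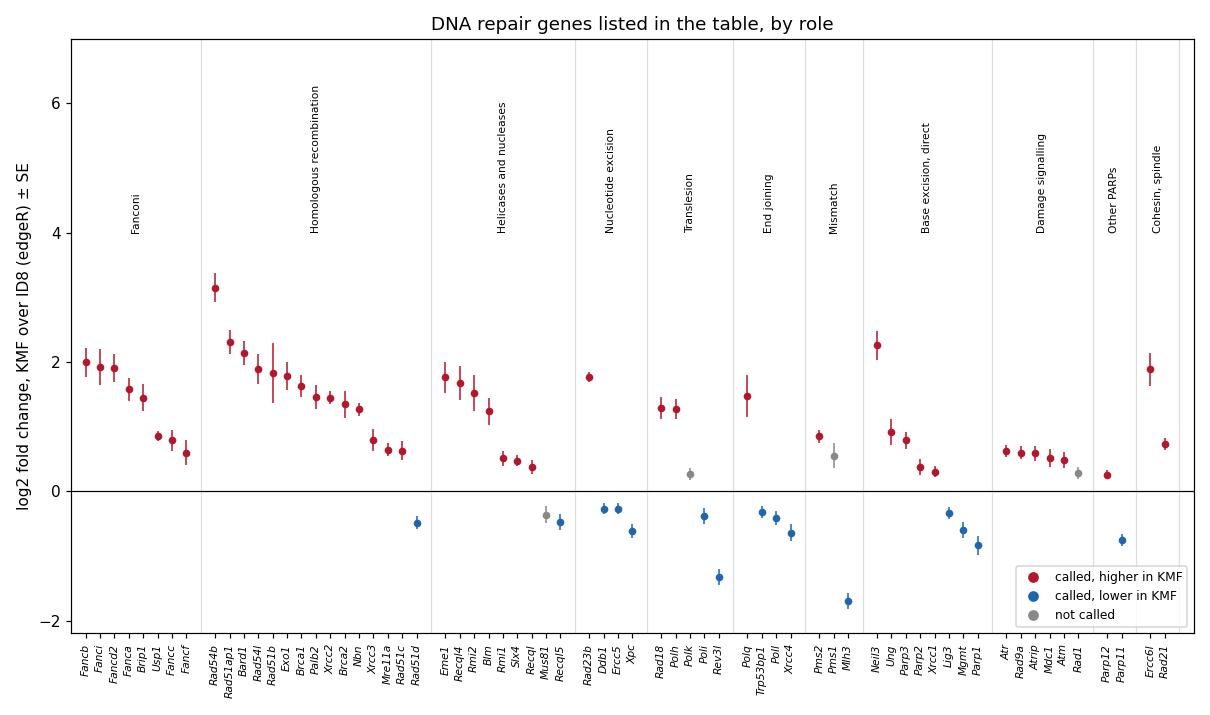
Log2 fold change of KMF over ID8 (vertical axis, edgeR, bars ± SE) for 66 of the 68 genes, grouped by role along the horizontal axis. Red points were called higher, blue points called lower and grey points not called. All 8 Fanconi genes and every recombination gene shown except Rad51d were called higher, beside 45.4% of all fitted genes.

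The Fanconi genes moved in 1 direction. All 8 listed genes were called higher, beside 45.4% of all fitted genes, with a median log2 fold change of 1.51. Fancb, a subunit of the core ligase, measured 0.911, 1.10 and 0.654 FPKM in ID8 and 3.14, 3.37 and 3.83 in KMF, a log2 fold change of 1.995 ± 0.23 (adjusted p = 0.000358, edgeR). Fanci measured 1.26, 1.67 and 0.785 FPKM in ID8 and 4.06, 4.06 and 5.61 in KMF, or 1.93 ± 0.28 (adjusted p = 0.00114, edgeR). Its partner Fancd2 measured 1.88, 1.84 and 1.27 FPKM in ID8 and 5.58, 4.93 and 7.66 in KMF, or 1.90 ± 0.22 (adjusted p = 0.000364, edgeR). The lowest KMF library was well above the highest ID8 library for each of the 3 genes, and ID8 replicate 3 was the lowest of its line. The lines also did not overlap for 96.6% of all fitted genes. The ratio of Fancd2 to Fanci FPKM was 1.40 ± 0.27 in ID8 and 1.32 ± 0.09 in KMF, so the pair rose to a like degree. Fanca, another core subunit, rose from 2.09 ± 0.32 to 6.08 ± 1.04 FPKM, and Brip1, the FANCJ helicase, from 1.39 ± 0.27 to 3.69 ± 0.81. Smaller rises were seen for Usp1, the protease that removes ubiquitin from FANCD2, from 17.0 ± 1.02 to 30.0 ± 0.75 FPKM, and for Fancc, from 1.56 ± 0.07 to 2.62 ± 0.32. Fancf, an adaptor of the core ligase, was at 2.29 ± 0.37 and 3.38 ± 0.26 FPKM, and its call (adjusted p = 0.0433, edgeR) was lost on leaving out any 1 of the 6 libraries, with adjusted p between 0.0558 and 0.130. The core subunits Fance, Fancg, Fancl and Fancm were not among the listed genes and were not analysed here.

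Among 16 listed genes of homologous recombination, 15 were called higher and 1 lower, beside 45.4% and 47.5% of all fitted genes. Their median was 1.54 on the log2 scale. Rad54b (chr4:11558922-11615805), a motor protein that acts when a broken strand invades the intact duplex, rose most of all 68 genes. It measured 1.48, 1.23 and 0.910 FPKM in ID8 and 8.72, 9.60 and 13.1 in KMF, a log2 fold change of 3.15 ± 0.23 (adjusted p = 5.13e-05, edgeR). Rad54b shares 35.8% of its exon bases with Fsbp on the same strand, and reads there can belong to either gene. Fsbp held between 5 and 83 counts in a library, with a log2 fold change of 3.10. Rad51ap1, which stimulates strand exchange, measured 3.22, 3.45 and 2.42 FPKM in ID8 and 13.4, 12.9 and 17.5 in KMF, or 2.31 ± 0.18 (adjusted p = 7.23e-05, edgeR). Bard1, the partner without which BRCA1 is unstable, measured 1.43, 1.32 and 1.01 FPKM in ID8 and 4.84, 4.75 and 6.60 in KMF, or 2.14 ± 0.19 (adjusted p = 0.000108, edgeR). ID8 replicate 3 was again the lowest and KMF replicate 3 the highest library for each of the 3 genes.

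The BRCA genes and their partners rose as well. Brca1 rose from 2.57 ± 0.55 to 7.78 ± 0.96 FPKM, Brca2 from 0.926 ± 0.244 to 2.29 ± 0.33, and Palb2, which joins the BRCA proteins, from 0.711 ± 0.029 to 1.90 ± 0.26. Because Bard1 rose more than Brca1, the Brca1 to Bard1 ratio of FPKM was 2.04 ± 0.09 in ID8 and 1.45 ± 0.10 in KMF, and the 3 ratios of one line did not overlap those of the other. Rad54l, the close relative of Rad54b, rose from 1.03 ± 0.23 to 3.75 ± 0.87 FPKM, and the Rad54b to Rad54l ratio went from 1.16 ± 0.02 to 2.81 ± 0.27. Exo1, which resects broken ends, rose from 1.21 ± 0.28 to 4.04 ± 0.68 FPKM. In the MRN complex, which senses the ends, Nbn rose from 10.9 ± 1.26 to 25.4 ± 1.18 and Mre11a from 5.51 ± 0.47 to 8.37 ± 0.63.

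The genes Xrcc2, Xrcc3, Rad51b, Rad51c and Rad51d, whose proteins form complexes that assist strand exchange, did not move together. Xrcc2 rose from 3.43 ± 0.09 to 9.10 ± 0.43 FPKM, Xrcc3 from 3.92 ± 0.40 to 6.61 ± 1.30 and Rad51c from 1.59 ± 0.13 to 2.39 ± 0.23. Rad51d measured 9.99, 9.34 and 9.73 FPKM in ID8 and 6.22, 6.56 and 7.43 in KMF, a log2 fold change of -0.48 ± 0.10 (adjusted p = 0.00559, edgeR). It was the only recombination gene of the list that fell. Rad51b was low throughout, at 0.501, 0.283 and 0.133 FPKM in ID8 and 1.04, 0.836 and 1.35 in KMF. Its log2 fold change of 1.83 ± 0.46 (adjusted p = 0.0149, edgeR) was not called without KMF replicate 3, where the adjusted p was 0.0577.

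**Figure D2:**
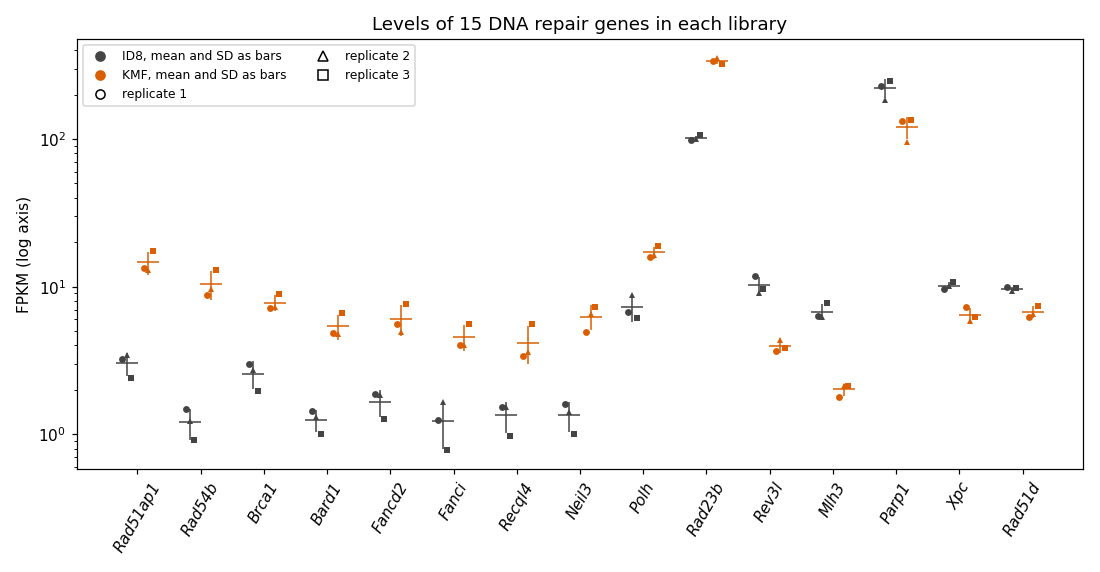
FPKM of 15 genes (log axis) in each ID8 library (grey) and KMF library (orange), with symbols for replicates 1 to 3 and bars for the mean and SD. The first 10 genes rose in KMF and the last 5 fell, and ID8 replicate 3 lies below the other ID8 libraries for Rad54b, Fanci and Recql4.

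Helicases and nucleases that resolve recombination intermediates gave 7 genes called higher, 1 called lower and 1 not called of 9 listed. Of all fitted genes, 45.4% were called higher and 47.5% lower. The median log2 fold change of the 9 genes was 0.51. Eme1, the partner of the MUS81 nuclease, measured 1.65, 1.31 and 1.07 FPKM in ID8 and 3.70, 3.98 and 5.67 in KMF, a log2 fold change of 1.77 ± 0.24 (adjusted p = 0.000860, edgeR). Mus81 itself measured 13.7, 11.3 and 14.5 FPKM in ID8 and 9.38, 11.1 and 9.29 in KMF, and the difference of -0.37 ± 0.13 on the log2 scale was not called (adjusted p = 0.0636, edgeR). It was called in 7 of 17 alternatives, among them without ID8 replicate 2 (adjusted p = 0.0356). The Eme1 to Mus81 ratio of FPKM was 0.103 ± 0.026 in ID8 and 0.454 ± 0.136 in KMF, so the nuclease subunit stayed the more abundant transcript of the pair in both lines.

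Recql4 (chr15:76703553-76710559), a RECQ helicase that acts at replication origins and at breaks, measured 1.53, 1.53 and 0.974 FPKM in ID8 and 3.41, 3.59 and 5.56 in KMF. The difference was 1.67 ± 0.26 on the log2 scale (adjusted p = 0.00156, edgeR). Rmi2 and Blm, which act together to dissolve double Holliday junctions, both rose. Rmi2 measured 0.743, 0.731 and 0.458 FPKM in ID8 and 1.39, 1.67 and 2.35 in KMF, or 1.52 ± 0.28 (adjusted p = 0.00394, edgeR), and Blm rose from 1.91 ± 0.42 to 4.40 ± 0.85 FPKM. Their partner Rmi1 rose less, from 3.85 ± 0.29 to 5.34 ± 0.10 FPKM, and Slx4, the scaffold of the nucleases, from 4.40 ± 0.15 to 5.95 ± 0.23. Recql was at 5.998 ± 0.41 and 7.54 ± 0.62 FPKM, and its call (adjusted p = 0.0285, edgeR) was lost without ID8 replicate 1, 2 or 3 or KMF replicate 3 (0.0566 to 0.0791). Recql5, a RECQ helicase that restrains recombination, measured 8.90, 7.29 and 8.61 FPKM in ID8 and 5.00, 5.98 and 6.37 in KMF, or -0.47 ± 0.12 (adjusted p = 0.0160, edgeR). That call was lost without ID8 replicate 1 or KMF replicate 1 (0.0669 and 0.0543).

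Some of the promoters of these genes share a short word that E2F factors, which switch on genes of DNA synthesis, are known to bind. The words TTCCCGC or TTCGCGC or TTGCCGC or TTGGCGC were searched on both strands of 300-base windows, from 250 bases before to 50 after a start given by RefSeq on GRCm38.p6. The letters were chosen after the data had been seen. A window was given for 50 of the 68 genes. A word was found for 9 of 18 genes that rose at least 2-fold (50%), for 8 of 21 other genes with a positive log2 fold change (38.1%) and for 2 of 11 with a negative one (18.2%). A word was also found for 19 of 37 replication and cell cycle genes (51.4%), and its share was 19.7% of all listed genes and 10.9% of all 27025 genes with a window. Any of the 4 words with a further T in front, 8 letters long, was found for 2 of the 18 (11.1%), 3 of the 21 (14.3%) and 0 of the 11 genes, for 13 of the 37 replication and cell cycle genes (35.1%), for 5.04% of all listed genes and for 2.60% of all. The order of the first groups thus differed between the words, and with so few genes nothing is read from it. Bases before the start are shown for 4 genes that rose at least 2-fold and have a word there, and for Xrcc4, which fell, with the word in capitals. Bard1 lies at chr1:71103147-71103222 on the minus strand, Fancb at chrX:164980373-164980472 and Brca2 at chr5:150522406-150522505 on the plus strand, Blm at chr7:80535120-80535187 and Xrcc4 at chr13:90089656-90089755 on the minus strand.
Bard1: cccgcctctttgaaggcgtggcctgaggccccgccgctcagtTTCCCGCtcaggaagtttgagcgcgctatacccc
Fancb: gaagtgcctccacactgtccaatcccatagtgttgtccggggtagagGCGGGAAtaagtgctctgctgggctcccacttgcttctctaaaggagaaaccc
Brca2: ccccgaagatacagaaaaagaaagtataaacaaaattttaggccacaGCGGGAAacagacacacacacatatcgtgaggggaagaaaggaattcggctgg
Blm: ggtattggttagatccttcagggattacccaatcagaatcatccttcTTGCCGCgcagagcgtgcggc
Xrcc4: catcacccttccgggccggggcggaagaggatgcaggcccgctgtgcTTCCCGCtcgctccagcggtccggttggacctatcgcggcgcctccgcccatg
A match describes these letters alone, and binding was not measured.

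Of 4 listed genes of nucleotide excision repair, 1 was called higher and 3 lower, beside 47.5% of all fitted genes called lower, and the log2 median was -0.27. No difference between repair pathways was tested. Rad23b (chr4:55350043-55392237), which holds XPC in a stable form, was among the most abundant of the 68 genes. It measured 99.02, 99.8 and 106 FPKM in ID8 and 338, 351 and 324 in KMF, a log2 fold change of 1.77 ± 0.08 (adjusted p = 7.38e-06, edgeR). Xpc measured 9.65, 10.05 and 10.8 FPKM in ID8 and 7.30, 5.83 and 6.20 in KMF, or -0.62 ± 0.11 (adjusted p = 0.00298, edgeR). The Rad23b to Xpc ratio of FPKM was therefore 9.99 ± 0.25 in ID8 and 52.9 ± 6.95 in KMF. Ddb1, an adaptor of the ligase that marks damage, measured 254, 259 and 228 FPKM in ID8 and 212, 192 and 195 in KMF. Ercc5, the nuclease that cuts on the 3′ side, measured 9.92, 9.22 and 10.5 FPKM in ID8 and 7.54, 7.79 and 8.54 in KMF. Both differences were -0.27 ± 0.09 on the log2 scale. The call of Ddb1 (adjusted p = 0.0488, edgeR) was lost without ID8 replicate 1 or 2 or KMF replicate 2 or 3 (0.145 to 0.194), and that of Ercc5 (0.0412) without any 1 of the 6 libraries (0.05095 to 0.181). The core genes Xpa, Ercc1, Ercc2, Ercc3 and Ercc4 were not among the listed genes and were not analysed here.

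Translesion genes split. Rad18, the ligase that marks PCNA to call these polymerases, measured 3.62, 4.56 and 3.19 FPKM in ID8 and 9.04, 7.88 and 10.2 in KMF, a log2 fold change of 1.29 ± 0.17 (adjusted p = 0.000653, edgeR). Polh, the polymerase that copies past adducts within a strand, measured 6.73, 8.85 and 6.13 FPKM in ID8 and 15.9, 16.3 and 18.9 in KMF, or 1.27 ± 0.16 (adjusted p = 0.000531, edgeR). Rev3l (chr10:39732118-39875211), the catalytic subunit of polymerase zeta that extends from the lesion, measured 11.9, 9.02 and 9.67 FPKM in ID8 and 3.66, 4.35 and 3.81 in KMF, or -1.33 ± 0.12 (adjusted p = 0.000126, edgeR). The inserting and the extending polymerase thus moved in opposite directions, and the Polh to Rev3l ratio of FPKM was 0.727 ± 0.223 in ID8 and 4.35 ± 0.61 in KMF. Poli, another inserting polymerase, measured 3.77, 3.49 and 4.16 FPKM in ID8 and 2.82, 2.78 and 2.91 in KMF, and its call (adjusted p = 0.0444, edgeR) was lost without any 1 library (0.0582 to 0.154). Polk, at 8.56, 9.99 and 9.03 FPKM in ID8 and 10.5, 11.3 and 10.5 in KMF, was not called (adjusted p = 0.0567, edgeR), but was called in 4 of 17 alternatives, among them without ID8 replicate 2 (0.0284).

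Of 4 listed genes of end joining, the pathways that religate breaks without a template, 1 was called higher and 3 lower, beside 45.4% and 47.5% of all fitted genes. Polq, the polymerase of microhomology-mediated joining, measured 0.409, 0.509 and 0.230 FPKM in ID8 and 0.781, 0.973 and 1.34 in KMF, a log2 fold change of 1.47 ± 0.33 (adjusted p = 0.00876, edgeR). Xrcc4, the partner of ligase IV, measured 4.15, 4.31 and 4.86 FPKM in ID8 and 2.73, 3.04 and 2.56 in KMF, or -0.64 ± 0.13 (adjusted p = 0.00695, edgeR). Poll, a gap-filling polymerase, measured 12.0, 10.5 and 13.0 FPKM in ID8 and 8.01, 8.79 and 9.12 in KMF. Trp53bp1, which shields ends from resection, measured 8.04, 6.27 and 7.40 FPKM in ID8 and 5.73, 5.52 and 5.68 in KMF. Poll (-0.41 ± 0.11, adjusted p = 0.0211) and Trp53bp1 (-0.32 ± 0.10, adjusted p = 0.0318) were called by edgeR with all libraries. Both calls were lost without ID8 replicate 1 or 3 or any 1 KMF library, with adjusted p from 0.0526 to 0.0783 for Poll and from 0.0716 to 0.126 for Trp53bp1. Xrcc5, Xrcc6 and Lig4 were not among the listed genes and were not analysed here.

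In mismatch repair, 4 genes were listed, of which 1 was called higher and 1 lower, beside 45.4% and 47.5% of all fitted genes. Mlh3 (chr12:85234529-85270591), a subunit of an endonuclease that acts mainly in meiosis, fell most of all 68 genes. It measured 6.32, 6.21 and 7.71 FPKM in ID8 and 1.799, 2.13 and 2.12 in KMF, a log2 fold change of -1.70 ± 0.13 (adjusted p = 5.79e-05, edgeR). Pms2, the endonuclease subunit that nicks the strand to be corrected, measured 2.34, 2.23 and 2.34 FPKM in ID8 and 4.04, 3.83 and 4.23 in KMF, or 0.85 ± 0.10 (adjusted p = 0.000434, edgeR). These genes thus moved in opposite directions, and the lines did not overlap for either, as for 96.6% of all fitted genes. Pms1, at 1.95, 1.64 and 1.79 FPKM in ID8 and 2.21, 2.25 and 3.18 in KMF, was not called (adjusted p = 0.0609, edgeR). Msh3 and Msh6 were not among the listed genes and were not analysed here.

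Base excision and direct reversal gave 5 genes called higher and 3 called lower of 8 listed, beside 45.4% and 47.5% of all fitted genes. Neil3, a glycosylase that can also unhook crosslinks, measured 1.61, 1.41 and 1.01 FPKM in ID8 and 4.96, 6.51 and 7.34 in KMF, a log2 fold change of 2.26 ± 0.22 (adjusted p = 0.000185, edgeR). Ung, which removes uracil, measured 7.65, 8.05 and 4.89 FPKM in ID8 and 13.4, 11.1 and 13.5 in KMF, or 0.92 ± 0.20 (adjusted p = 0.00817, edgeR). Parp3 measured 6.08, 6.04 and 7.80 FPKM in ID8 and 10.8, 12.0 and 10.7 in KMF, or 0.79 ± 0.13 (adjusted p = 0.00195, edgeR). Parp1 (chr1:180568955-180601253), the main sensor of nicks and a target of PARP inhibitors, went the other way. It measured 230, 185 and 249 FPKM in ID8 and 132, 96.1 and 134 in KMF, or -0.84 ± 0.15 (adjusted p = 0.00336, edgeR), and in both lines it was far above Parp2, with a Parp2 to Parp1 ratio of 0.0511 ± 0.0038 and 0.119 ± 0.021. Mgmt, which takes alkyl groups off guanine, measured 44.4, 47.1 and 59.7 FPKM in ID8 and 33.5, 31.7 and 31.9 in KMF, or -0.60 ± 0.12 (adjusted p = 0.00588, edgeR).

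The scaffold and ligase of this pathway differed little. Lig3 measured 7.94, 7.38 and 7.16 FPKM in ID8 and 6.09, 5.30 and 5.98 in KMF (adjusted p = 0.0220, edgeR), Xrcc1 was at 16.4 ± 0.34 and 19.7 ± 1.29 (0.0198) and Parp2 at 11.2 ± 0.95 and 14.1 ± 1.73 (0.0428). The calls of Lig3 and Xrcc1 were lost without ID8 replicate 1 or 2 or KMF replicate 2 or 3, with adjusted p from 0.0550 to 0.106 and from 0.0533 to 0.0737. Parp2 lost its call without any 1 library except KMF replicate 1 (0.0642 to 0.135).

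Of 6 listed genes of damage signalling, 5 were called higher, beside 45.4% of all fitted genes, and 1 was not called. The 5 rises were below 2-fold. Atr, the kinase that answers stalled forks, measured 3.94, 3.22 and 3.41 FPKM in ID8 and 5.22, 5.37 and 5.30 in KMF, a log2 fold change of 0.63 ± 0.10 (adjusted p = 0.00151, edgeR). Rad9a, of the clamp that activates ATR, measured 12.3, 12.3 and 13.5 FPKM in ID8 and 17.0, 18.4 and 20.5 in KMF, or 0.60 ± 0.10 (adjusted p = 0.00219, edgeR). Atrip, the partner of ATR, measured 2.59, 2.88 and 3.01 FPKM in ID8 and 4.31, 4.02 and 4.07 in KMF, or 0.59 ± 0.12 (adjusted p = 0.00552, edgeR). The kinase, its partner and a clamp subunit thus rose by similar amounts. Atm, the kinase that answers breaks, was at 3.10 ± 0.50 and 4.23 ± 0.30 FPKM (adjusted p = 0.0181, edgeR), a call lost without ID8 replicate 2 or 3 (0.0571 and 0.0516), and Mdc1, which binds marked chromatin, was at 7.19 ± 1.25 and 10.04 ± 1.10 (0.0204), a call lost without KMF replicate 3 (0.0599). Rad1, another clamp subunit, measured 5.19, 5.10 and 5.01 FPKM in ID8 and 6.03, 5.74 and 6.30 in KMF and was not called (adjusted p = 0.0507, edgeR), but was in 3 of 17 alternatives.

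A further 4 genes match the symbol patterns but were not placed in any of the repair groups above. Ercc6l, a helicase that acts in mitosis despite its name, measured 1.73, 1.83 and 0.919 FPKM in ID8 and 4.71, 5.22 and 6.24 in KMF. Its log2 fold change was 1.89 ± 0.26 (adjusted p = 0.000876, edgeR). Rad21, a cohesin subunit, measured 95.3, 98.1 and 83.4 FPKM in ID8 and 149, 141 and 160 in KMF, or 0.74 ± 0.09 (adjusted p = 0.000562, edgeR). Parp11 fell by 0.75 ± 0.09 on the log2 scale (adjusted p = 0.000491, edgeR), from 10.9, 12.0 and 11.8 FPKM in ID8 to 6.21, 6.79 and 7.04 in KMF. Parp12 measured 14.7, 13.8 and 13.4 FPKM in ID8 and 16.4, 15.9 and 16.3 in KMF, and its call (adjusted p = 0.0272, edgeR) was lost without ID8 replicate 2 or 3 or KMF replicate 1 or 3 (0.0571 to 0.0723).

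Repair genes outside the symbol patterns were read from a list of 90 symbols, of which 49 were listed. Calls were made for 45 of them (91.8%, beside 92.9% of all fitted genes), and none for Hltf, Rpa3, Uimc1 and Nthl1. Of the 45, 38 were higher and 7 lower (beside 45.4% and 47.5% of all fitted genes). Only 4 were called lower without ID8 replicate 1 or 2, and 3 without KMF replicate 2 or 3 or with a replicate block. Calls over all genes also fell in these fits, from 6470 to between 5189 and 5766. The log2 median of the 49 genes was 0.61. The largest rises were those of Ube2t, the conjugating enzyme of the Fanconi ligase (1.65 ± 0.33 to 7.91 ± 1.12 FPKM, log2 fold change 2.29), Mnd1, a cofactor of strand exchange (1.41 ± 0.37 to 5.93 ± 0.88, 2.11), and H2afx, the histone phosphorylated at breaks (24.8 ± 5.96 to 90.2 ± 4.22, 1.90). The largest falls among the called genes were those of Zswim7, which acts in recombination (18.4 ± 1.83 to 6.93 ± 0.79 FPKM, -1.37), Bre (18.7 ± 1.86 to 12.3 ± 1.08, -0.56) and Alkbh2 (11.5 ± 0.94 to 7.98 ± 0.70, -0.49). Nthl1, a glycosylase, was at 7.10 ± 1.91 and 3.82 ± 1.36 FPKM (-0.85), a larger difference that was not called (adjusted p = 0.0608, edgeR), but was called in 5 of 17 alternatives, among them without KMF replicate 1 (0.0235). The call of Alkbh2 (adjusted p = 0.0261, edgeR) was lost without any 1 library except ID8 replicate 1 (0.0555 to 0.113).

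Many recombination and Fanconi genes are transcribed mainly in dividing cells, and genes of DNA replication and the cell cycle moved with them. Of 50 such genes, 48 were listed and all 48 were called higher in KMF, beside 45.4% of all fitted genes. Their median was 1.44 on the log2 scale. Ccna2 (cyclin A2) rose from 9.83 ± 2.40 to 65.3 ± 10.4 FPKM, Mki67, the proliferation marker Ki-67, from 6.33 ± 2.0 to 35.1 ± 3.41 and Ccne2 (cyclin E2) from 3.57 ± 0.37 to 18.8 ± 1.95. The sum of the 48 genes was 682, 692 and 515 FPKM in ID8 replicates 1, 2 and 3 and 1768, 1608 and 2003 in the KMF libraries. The share of dividing cells was not measured in these libraries, and its part in the levels of the repair genes was not tested.

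ID8 replicate 3, the library of passage 35, had the lowest cell cycle sum. It was the lowest ID8 library for 35 of the 68 repair genes, beside 37.4% of all fitted genes, and the sum of the 68 was 1060, 1009 and 1047 FPKM in ID8 replicates 1, 2 and 3. Among the 27 genes that rose at least 2-fold it was the lowest for 24, beside 55.5% of all 1255 genes called that much higher. A low value in this library itself raises the fold by which these genes were chosen, so the count is a description. For the 27 genes, its FPKM was a median 0.682 of the mean of the other ID8 libraries. KMF replicate 3, which had the highest cell cycle sum, was the highest KMF library for 25 of the 27, beside 43.5% of the 1255, and the same limit holds. Without ID8 replicate 3 the median log2 fold change of the 27 genes was 1.49 in place of 1.77, and that of all 68 was 0.66 in place of 0.69. Every ID8 library was of a later passage number than every KMF library. The part of passage in the fold changes thus cannot be told apart from that of the line. Within a line, it cannot be told apart from that of the library.

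**Figure D3:**
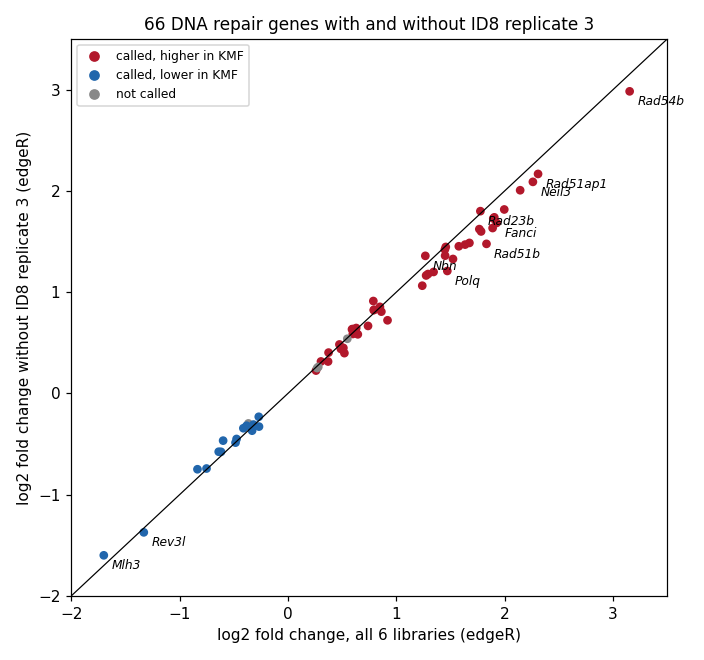
Log2 fold change of 66 repair genes with all 6 libraries (horizontal axis) and without ID8 replicate 3 (vertical axis), both from edgeR, with the line of equality. Rad54b, Rad51ap1, Neil3 and most other genes that rose at least 2-fold lie below the line, and none changed sign. The genes had already been called on these libraries, so a kept sign is no independent evidence.

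Neighbouring genes were compared with the repair genes, since the study also looked at DNA gains in KMF. For 66 genes with at least 3 other listed genes within 2 Mb, 42 (63.6%) changed in the direction of the neighbours' median, beside 63.7% of 6774 fitted genes with as many neighbours. Of the 27 genes that rose at least 2-fold, the neighbours' median was above 0 for 14 and below 0 for 13. Rad23b lay among genes that rose as it did, with a median log2 fold change of 1.97 over 10 neighbours. Usp1 (1.85 over 9 neighbours), Rad54b (1.19 over 16) and Exo1 (1.13 over 9) also had neighbours that were higher. For Rad54b the gene's own log2 fold change, 3.15, was above that of its neighbours, and for Usp1 it was below, at 0.86. Recql4 lay among genes with a median of -0.50 over 39 neighbours, Rad51ap1 among genes at -0.52 over 23 and Bard1 at -0.83 over 5. Rev3l and Xpc, which fell, had neighbours at -1.21 over 21 and -1.16 over 13, while Mgmt fell beside 4 neighbours at 2.20. DNA copies were not measured in these libraries. The neighbours' median covers listed genes alone and does not show whether a gene lies in a gained or lost region.

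**Figure D4:**
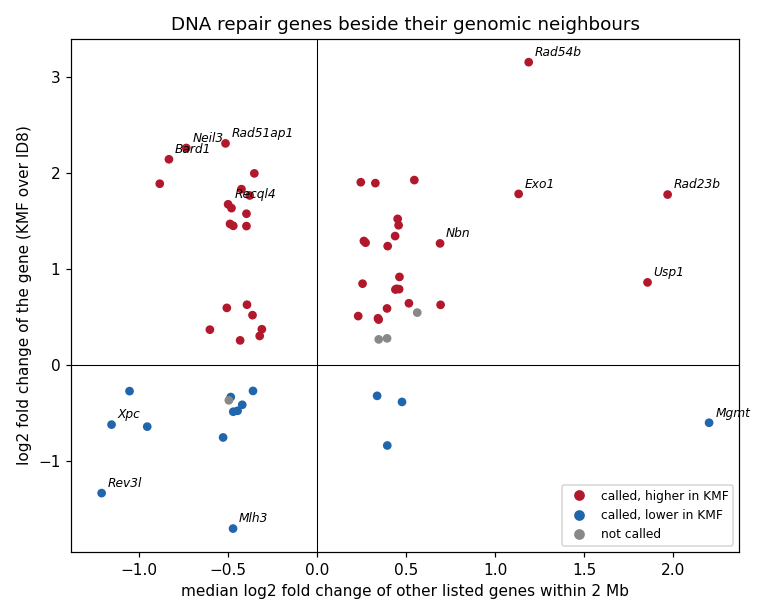
Log2 fold change of each repair gene (vertical axis) against the median of the other listed genes within 2 Mb (horizontal axis), for 64 genes with at least 3 neighbours. Rad23b and Usp1 lie at the right among neighbours that rose, and Neil3, Bard1 and Rad51ap1 at the upper left, where the neighbours' median is below 0.

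Exons shared with another gene can move reads between genes, since whether counting used strand is not given. Besides Rad54b, 9 genes share at least 10% of their exon bases with another gene. The highest shares were 37.7% for Recql (with Pyroxd1), 25.1% for Lig3 (with Rffl) and 16.4% for Fancc (with Gm16133), all on opposite strands. Fanci shares 15.95% with Polg and Rad54l 15.4% with Lrrc41, and Atrip shares 16.04% with Trex1 on the same strand. The values of these genes are uncertain, and how many reads were shared was not tested.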

How the data were processed

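RNA of 3 ID8 and 3 KMF libraries (poly-A selection, NEBNext Ultra, paired-end Illumina reads) was quantified by the authors. The study's methods name TopHat2 for mapping, whereas the submitters' processing notes list CASAVA 1.8, STAR 2.5, DESeq2 and build mm10; the counting tool, annotation release and strand setting are not given in the sources used here. The deposited table holds raw counts per gene and library and FPKM, which the authors scaled to gene length and fragments on genes. A mean signal per line was made by the authors from counts divided by their size factors. The authors' deposited log2 fold changes and p-values (DESeq2) were used only to recover the 17359 genes tested and the largest adjusted p-value, 0.0499, and are not reported.

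Library sizes, 23108407 to 33212313 fragments, were recovered from count, FPKM and length. The model was edgeR 4.0.16 under R 4.3.3, on counts of all 7320 genes (TMM, filterByExpr, glmQLFTest, two-sided, no covariate), which left 6967 genes. Adjustment ran over 17359 genes, those outside the table ranked last. On simulated data with 200 of 7320 genes changed by 1 log2 unit, 85% were called, with 15 false calls. That run adjusted over its fitted genes alone, and far fewer genes changed than were called in the data. It therefore does not give the error rate of the calls above. No libraries of a line agreed within counting noise (chi-square per degree of freedom 19.3 or more), so each counts as 1 replicate.

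The members and gene lists were chosen with earlier results of these data known. Values in every library are given for the 3 largest called rises and falls of each role, Recql4, genes that fell at least 2-fold and genes not called; of other repair and cycle genes, the 3 largest changes in each direction are named, and other genes as a result needed them. All 68 genes overlapped their GENCODE M21 position (GRCm38). Promoters are from RefSeq. Some genes are counted among the 68 but their values are not reported here. Alternatives were other scalings, filters and adjustment, DESeq2 1.42.0, limma 3.58.1 on log2(FPKM + 1) and log2(FPKM + 0.1), a replicate block and leaving out each library. Figures were drawn with matplotlib 3.10.9 in Python 3.11.15.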

Additional observations from a re-analysis of the deposited data

How the results depend on the processing

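No repair gene changed direction under any of 17 alternatives. The authors had already called these genes on the same 6 libraries, and the alternatives refit the same data. A kept direction or call is therefore no independent evidence. Of the 63 called genes, 48 were called in each alternative in which they could be fitted, and 20 of the 68 genes crossed the threshold in at least 1. The count of called genes was 63 of 68, beside 6470 of 6967 fitted genes. It was 64 by DESeq2 (beside 6830 of 7320) and 68 when adjusted over the listed genes alone (beside 6956 of 6967). It was lowest, at 50, without KMF replicate 3, where 5351 of all 7108 fitted genes were called. The median log2 fold change of the repair genes was 0.69. It became 0.58 under upper quartile scaling and 0.60 where every library had to hold 10 counts. It became 0.51 with limma on log2(FPKM + 1) and 0.59 with limma on log2(FPKM + 0.1). The filters of the last 3 left fewer genes, and the cause was otherwise not tested. Upper quartile scaling moved the median of all genes by -0.11 on the log2 scale. Leaving out 1 library gave 8 to 12 repair genes called lower in place of 15. There were 8 without ID8 replicate 1 and 9 without KMF replicate 2 or 3. For other repair genes it gave 3 to 6 called lower in place of 7. There were 4 without ID8 replicate 1 or 2 and 3 without KMF replicate 2 or 3. Of all genes, 5189 to 5907 were called in those fits, in place of 6470. Those fits have fewer samples. Same-numbered libraries deviated with correlations of 0.057, -0.185 and 0.085, so the numbers do not pair them. With a replicate block 55 repair genes were called, 43 higher and 12 lower, and 3 other repair genes were called lower. Of all genes, 5720 were called with that block. An added alternative with the authors' size factors, chosen after seeing the data, gave 63 called repair genes, beside 6475 of all genes. Depth limits Rad51b, with as few as 6 counts in a library, the lowest of the 68 genes.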
